A study of Mus musculus with 16 samples.

Results

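Supt7l is a core subunit of SAGA, and its loss in mouse embryonic stem cells was compared here with wild-type (WT) cells through the RNA that the cells had just made. The comparison was chosen by project and genotype. It took in the raw counts of the 2 Supt7l-/- libraries and the 2 WT libraries of project 2, of 3 sequencing projects, 4 libraries of 16 in the series, and covered genes on chromosomes 1 to 19 that passed a filter on low counts, 14001 of 26745 autosomal genes listed. The Supt7l-/- group was 2 libraries labelled as separate clones, clone 1 and clone 2, each of which is a single clone. The WT group was 1 library of the plain WT line and 1 library of a WT line that overexpresses Tir1/BirA, so the WT libraries came from different lines. The labels do not say whether the Supt7l-/- clones carry Tir1/BirA. All cells were of E14, a male mouse embryonic stem cell line, grown on gelatine in serum medium with LIF, CHIR99021 (an inhibitor of GSK3) and PD0325901 (an inhibitor of MEK). WT cells received auxin (IAA) for 24 h just as the Supt7l-/- cells did. The project's other lines, 2 AID-Yeats2 clones, carry a degron by which auxin takes away the ATAC subunit Yeats2. The labels do not say whether the libraries came from separate cultures beyond the clones, so p-values measure the spread between these libraries.

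SAGA and ATAC are coactivator complexes that share an acetyltransferase module, which places acetyl groups on histone H3. SAGA also has a module that removes ubiquitin from histone H2B, a subunit (Trrap) that activators bind, a module that delivers TBP to promoters, and a core in which Supt7l pairs with Taf10 through histone folds. In yeast the orthologue of Supt7l, Spt7, is needed for the complex to hold together. Cells given 4-thiouridine (4sU) for 15 min build it into new transcripts, which are then purified, so the counts report recent transcription and little of the standing RNA pool. Cells of fission yeast, labelled in the same way with 4-thiouracil, had been added before extraction, and their RNA serves as an external scale.

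Mouse counts were 8684869 and 9459757 in Supt7l-/- clones 1 and 2, and 10542251 and 9488959 in plain and Tir1/BirA WT. Yeast counts were 1976856 and 1637142 in the Supt7l-/- clones, and 1589788 and 1424672 in plain and Tir1/BirA WT. Levels below are CPM (counts per 1000000 of the mouse library size), adjusted by the trimmed mean of M-values (TMM), which sets the typical gene equal between libraries. Fold changes are log2 of Supt7l-/- over WT, with the standard error (SE), from edgeR's quasi-likelihood test with Benjamini-Hochberg adjustment over all 14513 genes tested and a threshold of 0.05. Summed CPM of 7 embryonic stem cell markers were 1483 and 1469 in Supt7l-/- clones and 1646 and 1735 in WT. Primitive endoderm markers summed to 23.9 and 18.4 CPM in Supt7l-/- clones and to 13.9 and 12.4 CPM in WT. Embryonic stem cell genes thus stood far above those of the lineage next to them in all 4 libraries. Fibroblast markers, which would show feeder cells, summed to 2.27 and 2.00 CPM in Supt7l-/- clones and to 7.73 and 7.91 CPM in WT.

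The libraries differed in ways that the Supt7l genotype need not set. Genes found once on the Y chromosome (Zfy1, Zfy2, Kdm5d, Uty, Usp9y, Ddx3y, Eif2s3y and Uba1y) had 12 and 11 counts in all in the Supt7l-/- clones, and 6357 and 7997 counts in plain and Tir1/BirA WT. Both Supt7l-/- clones therefore lacked nearly all RNA of these Y genes. Gm47283, listed on the Y at 90784738 to 90816464, had 18478 and 20193 counts in the clones, against 32205 and 38764 counts in WT. The source of the reads counted for Gm47283, from the Y alone or not, was not tested. Whether the cells hold a Y chromosome was not tested, and what goes with the low Y RNA cannot be told apart from the genotype. Genes of 3 autosomal regions, chosen after their values were seen, also split the libraries. Genes of distal chromosome 17 (from 74 Mb, mm10) summed to 4230 and 4174 CPM, here over plain mouse totals, in Supt7l-/- clones, 4953 in plain WT and 8298 in Tir1/BirA WT. Genes of distal chromosome 14 (from 62 Mb) summed to 20393 and 19984 in Supt7l-/- clones, 18942 in plain WT and 13893 in Tir1/BirA WT. In both regions plain WT stood near the Supt7l-/- clones and apart from the Tir1/BirA WT, which stood near the AID-Yeats2 clones. The same order of the WT lines came back in project 3, where plain WT had 4728 on distal chromosome 17 and 18926 on distal chromosome 14, and Tir1/BirA WT had 8203 and 13868. Plain WT of project 1 had 7751 and 13459, near Tir1/BirA WT of that project with 7747 and 13268. So the label of plain WT covers libraries of both kinds.

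**Figure D1:**
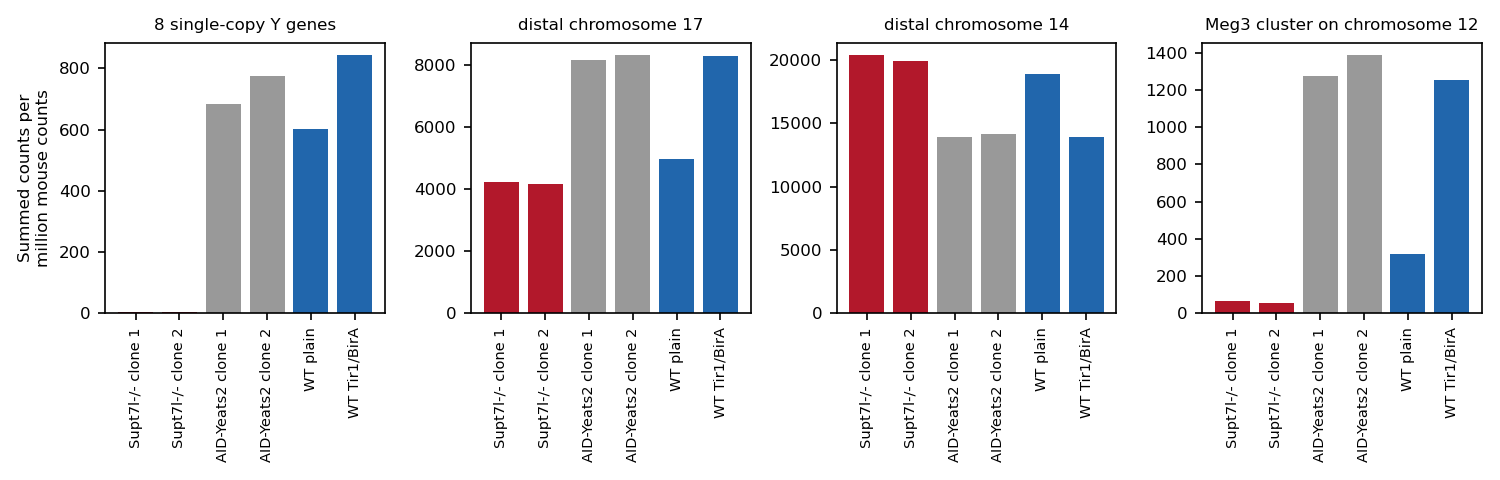
Summed CPM over plain mouse totals (bars, 1 per library) of 8 Y genes and of 3 autosomal regions, with Supt7l-/- clones in red, AID-Yeats2 clones in grey and WT in blue. Y genes were near 0 in both Supt7l-/- clones, and on distal chromosomes 17 and 14 plain WT (4953 and 18942) lay nearer to the clones than Tir1/BirA WT (8298 and 13893) did.

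Among the genes of these regions, 0 rose and 4 fell of 76 tested on distal chromosome 17 (median log2 fold change -0.55), and 6 rose and 2 fell of 185 tested on distal chromosome 14 (median 0.27). Both medians moved with the WT library used. Without plain WT they were -0.86 and 0.56, and without Tir1/BirA WT they were -0.21 and 0.06. Genes outside the 3 regions gave 179 of the 185 rises and 261 of the 272 falls described next.

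Of 14001 autosomal genes tested, 185 rose (1.32%) and 272 fell (1.94%) in Supt7l-/- cells, with 2540 below an unadjusted p of 0.05. Most changes were small. The median size was 0.72 among rises and 0.64 among falls on the log2 scale, and 50 rises and 60 falls exceeded 1 on that scale. Every called gene had both clones beyond both WT libraries, as did 24.2% (above) and 24.3% (below) of all genes tested. The count depended on single libraries. Without Supt7l-/- clone 1 there were 12 rises and 21 falls, and without clone 2 there were 21 and 39. Without plain WT there were 1250 rises and 1271 falls, and without Tir1/BirA WT 249 and 372. The groups then held 1 library on one side, whose spread was taken to be like that of the other groups. Genes of high level were called lower more often than higher, with 26 rises and 103 falls of 2376 genes of at least 100 CPM.

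**Figure D2:**
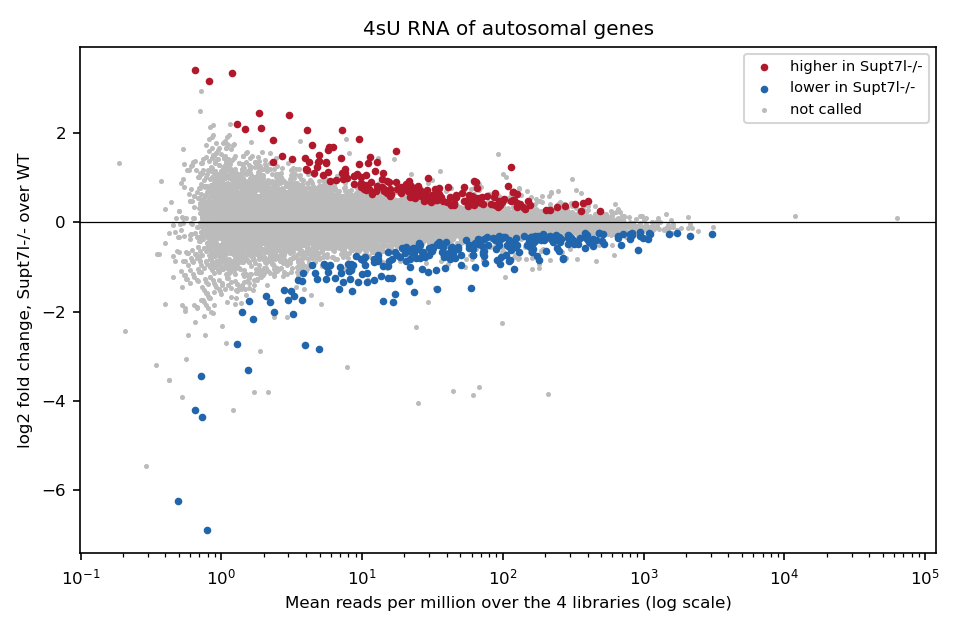
Log2 fold change of Supt7l-/- over WT (vertical) against mean CPM of the 4 libraries (horizontal, log scale) for autosomal genes, with the 185 rises in red, the 272 falls in blue and uncalled genes in grey. Called changes above 100 CPM were small and mostly falls, 26 rises and 103 falls.

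Setting the scale by the yeast spike-in in place of TMM moved the median of all genes to -0.36. The amount of mouse RNA per yeast RNA was 4.48 and 5.77 in Supt7l-/- clones 1 and 2, 5.12 ± 0.913 (SD, n = 2), and 6.55 and 6.58 in plain and Tir1/BirA WT, 6.57 ± 0.0240 (SD, n = 2). Both clones lay below both WT libraries, at 78.0% of the WT mean, and the exact two-sided permutation test gave p = 0.333, the smallest that 2 against 2 allows. The clones differed from each other by more than either WT library did from the other, and the log2 ratio was -0.19 without clone 1 and -0.55 without clone 2. On this scale 31 autosomal genes rose (0.221%) and 606 fell (4.33%). Without clone 1 there were 26 rises and 159 falls, without clone 2 41 and 3662, without plain WT 28 and 274, and without Tir1/BirA WT 0 and 49. All 272 TMM falls and 175 of the 185 TMM rises had the same sign, and 23 rises and 239 falls were called both ways. In the authors' deposited table of the same comparison, 4 of the genes tested here were higher and 704 lower at an adjusted p under 0.05. Directions below are relative to the typical gene, and all but 23 of the rises were not called on the spike-in scale.

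Supt7l itself (ENSMUSG00000053134, chromosome 5, 31514564 to 31527807, mm10) had 8.87 and 14.1 CPM in Supt7l-/- clones 1 and 2, and 13.9 and 14.3 CPM in plain and Tir1/BirA WT. Clone 2 lay between the WT libraries and clone 1 below them. The log2 fold change was -0.29 ± 0.20 (SE), adjusted p = 0.479. Where the gene was edited is not given in the sources used here, and a count over the whole gene does not show a small edit, so this level does not check the labels. Of the 7 other genes tested within 200 kb, none was called, among them Slc4a1ap (38.3 and 40.0 CPM in Supt7l-/- clones, 40.0 and 36.0 CPM in WT) and Gpn1 (29.9 and 34.1 CPM in Supt7l-/- clones, 33.1 and 35.7 CPM in WT).

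No gene of SAGA passed the test. None of 11 SAGA core genes, 6 genes of the acetyltransferase module and 7 genes of the deubiquitinase module passed the test in either direction, with median log2 fold changes of -0.06, -0.16 and 0.13 beside 0.00 for all genes. On the spike-in scale the 3 medians were -0.42, -0.51 and -0.24, beside -0.36 for all genes. Trrap, the subunit that activators bind, had 143 and 149 CPM in Supt7l-/- clones and 147 and 154 CPM in WT. Taf10, the partner of Supt7l, had 8.53 and 6.11 CPM in Supt7l-/- clones and 6.96 and 8.23 CPM in WT. The groups overlapped for both genes. Kat2a, the acetyltransferase itself, had 9.78 and 10.6 CPM in Supt7l-/- clones, against 13.2 and 13.9 CPM in WT, -0.41 ± 0.16 with adjusted p = 0.186. Its groups did not overlap, but the difference did not pass. Of 8 subunits of ATAC that SAGA lacks, 2 fell, beside 1.94% of all genes and 4.34% of genes of at least 100 CPM. They were Pole4, a histone-fold protein, (277 and 271 CPM in Supt7l-/- clones, 349 and 388 CPM in WT, -0.43 ± 0.07, edgeR adjusted p = 0.0039) and Wdr5 (179 and 187 CPM in Supt7l-/- clones, 211 and 251 CPM in WT, -0.34 ± 0.08, adjusted p = 0.035). Both are genes of that level. Wdr5 also serves in histone methyltransferase complexes and Pole4 in DNA polymerase epsilon. None of 12 TFIID genes, 30 genes of RNA polymerase II and its general factors, 29 Mediator genes and 24 pausing and elongation genes was called.

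The rises with the smallest p and those that kept their call whichever library was left out were few. Med12l, a relative of the Mediator kinase-module subunit Med12, had 85.0 and 78.4 CPM in Supt7l-/- clones, against 42.9 and 43.7 CPM in WT. Its clones lay close together and well above both WT libraries, 0.92 ± 0.09, adjusted p = 2.67e-04, though on the spike-in scale the value was 0.55 with adjusted p = 0.155. Anxa2, a calcium-dependent membrane-binding protein of the cell cortex, had 19.3 and 17.3 CPM in Supt7l-/- clones, against 7.25 and 7.05 CPM in WT, a rise of 1.35 ± 0.17, adjusted p = 9.26e-04. Its relative Anxa3 had 30.1 and 21.9 CPM in Supt7l-/- clones, against 10.3 and 6.84 CPM in WT, a rise of 1.59 ± 0.21, adjusted p = 0.00146. Both annexin genes were thus far apart between the groups, and both rose on the spike-in scale too (0.98 and 1.21). Cttnbp2, a binding partner of cortactin, had 77.1 and 87.9 CPM in Supt7l-/- clones, against 50.7 and 46.7 CPM in WT, a rise of 0.76. With Pmaip1 (below) and the antisense transcript Gm28376 (10.1 and 13.2 CPM in Supt7l-/- clones, 3.00 and 2.56 CPM in WT), these 6 were called higher with each of the 4 libraries left out in turn. That group of 6 was picked out after its values were seen.

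Falls that held in the same way numbered 18, also picked out after their values were seen. Acss1, the mitochondrial enzyme that makes acetyl-CoA from acetate (chromosome 2, 150618105 to 150668500), had 9.10 and 7.69 CPM in Supt7l-/- clones, against 25.0 and 26.2 CPM in WT, -1.61 ± 0.15, adjusted p = 2.67e-04. Dclk2, a microtubule-binding kinase of the doublecortin family, had 207 and 181 CPM in Supt7l-/- clones, against 335 and 351 CPM in WT, -0.82 ± 0.08, adjusted p = 2.67e-04. Cyp7b1, an oxysterol hydroxylase, had 67.6 and 63.6 CPM in Supt7l-/- clones, against 118 and 117 CPM in WT, -0.84 ± 0.08. In each the 2 clones lay close together and well below both WT libraries. Others of the 18 follow. Tenm4, a teneurin adhesion receptor, had 694 and 756 CPM in Supt7l-/- clones, against 1146 and 1076 CPM in WT, -0.62 ± 0.06. Slit2, the secreted ligand of Robo receptors, had 47.5 and 55.1 CPM in Supt7l-/- clones, against 90.2 and 104 CPM in WT, -0.92 ± 0.10, adjusted p = 4.33e-04. Sema5b, a semaphorin, had 11.1 and 13.3 CPM in Supt7l-/- clones, against 27.7 and 33.3 CPM in WT, -1.32. These showed falls of about the same size in both clones. Ntrk3, the receptor of neurotrophin-3 (-0.95), Edil3, an integrin ligand (-1.25), and Cdh4, a cadherin (-0.84), fell as well. So did Dlgap3, a postsynaptic scaffold (-0.76), and Cacna1a, a calcium channel subunit (-0.65). The remaining ones were Upp1, Ldlrad4, Stk33, Bahcc1, Zfp992, Gm281 and Gm43948.

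Promoters of 4 of these genes are printed to show what stretch of DNA stands before a gene whose new RNA rose (Med12l, Anxa2) or fell (Acss1, Dclk2). Each runs 5′ to 3′ on the strand of the gene, from 250 bases before to 50 bases after the RefSeq start in GRCm38.p6, in lower case, with 3 motifs in capitals wherever they occur on either strand: TATAAA (the TATA box), CCAAT and GGGCGG (the GC box, CCGCCC when read on this strand from the other). They lie at chr3:59006728-59007027 (Med12l, plus strand), chr9:69453433-69453732 (Anxa2, plus), chr2:150668191-150668490 (Acss1, minus) and chr3:86920835-86921134 (Dclk2, minus).
Med12l: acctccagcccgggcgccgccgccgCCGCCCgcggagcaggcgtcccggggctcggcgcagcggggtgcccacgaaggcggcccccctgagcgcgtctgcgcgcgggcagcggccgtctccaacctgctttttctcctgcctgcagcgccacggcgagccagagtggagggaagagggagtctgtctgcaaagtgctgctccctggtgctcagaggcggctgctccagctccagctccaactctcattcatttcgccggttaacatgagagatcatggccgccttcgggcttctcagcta
Anxa2: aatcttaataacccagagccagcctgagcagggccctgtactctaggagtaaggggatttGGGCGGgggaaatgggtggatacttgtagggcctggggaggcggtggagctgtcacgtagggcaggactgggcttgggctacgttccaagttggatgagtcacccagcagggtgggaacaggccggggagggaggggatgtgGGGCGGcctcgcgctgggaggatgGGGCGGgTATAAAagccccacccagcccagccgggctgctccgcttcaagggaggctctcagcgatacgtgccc
Acss1: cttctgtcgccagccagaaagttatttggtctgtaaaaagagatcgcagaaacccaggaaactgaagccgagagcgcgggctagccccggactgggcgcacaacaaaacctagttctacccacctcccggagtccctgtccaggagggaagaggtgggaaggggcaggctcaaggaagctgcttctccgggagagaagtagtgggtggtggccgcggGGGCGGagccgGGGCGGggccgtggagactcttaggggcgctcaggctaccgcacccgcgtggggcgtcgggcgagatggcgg
Dclk2: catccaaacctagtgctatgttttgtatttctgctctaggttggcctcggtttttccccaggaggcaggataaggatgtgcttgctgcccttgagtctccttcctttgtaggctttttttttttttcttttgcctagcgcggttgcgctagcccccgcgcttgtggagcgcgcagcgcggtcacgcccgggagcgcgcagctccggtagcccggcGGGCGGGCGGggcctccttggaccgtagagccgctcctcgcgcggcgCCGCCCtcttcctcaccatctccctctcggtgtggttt
All 4 hold a GC box, Anxa2 alone of them holds TATAAA, and none holds CCAAT; Dclk2 has GC boxes that overlap each other. The promoter table matched 9533 of 12280 autosomal protein-coding genes tested (77.6%). Over those, 65.1% of windows held GGGCGG, 38.5% CCAAT and 6.54% TATAAA. With under 80% matched, a comparison of the promoters of called genes with others is void and none is given.

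The 12 largest rises among protein-coding genes of at least 1 CPM were mostly at low levels. Sp110, a nuclear body protein whose gene lies among near-identical copies on chromosome 1, so that its reads are uncertain, had 22 and 18 counts in Supt7l-/- clones, against 2 and 2 counts in WT, a rise of 3.35 ± 0.63. Cacna1s, a calcium channel subunit of skeletal muscle, had 3.53 and 2.74 CPM in Supt7l-/- clones, against 0.290 and 0.855 CPM in WT, a rise of 2.45. Kndc1, a signalling protein best known from brain, had 3.64 and 2.63 CPM in Supt7l-/- clones, against 0.580 and 0.855 CPM in WT, a rise of 2.11. Groups were apart in all 3, but at few counts a library. In all 3 both WT libraries lay under the minimum count of the filter on low counts. Entry thus needed a high level outside WT, so with the filter these calls are no separate support for a rise. All 3 were also called higher with no such filter. Abcb5, an export pump of the ABC family, had 6.03 and 7.47 CPM in Supt7l-/- clones, against 1.93 and 2.14 CPM in WT, a rise of 1.73. Fam124a rose by 1.68 and lies on distal chromosome 14, where the WT lines differ. Fas, Perp and Pmaip1 come with the p53 targets below, and Anxa3 was given above. Sfta2, a surfactant-associated protein, rose by 2.08, Tmcc3 by 1.62 and Cnga3, an ion channel of cone photoreceptors, by 1.5.

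Low levels also marked the largest falls. Slfn9, a schlafen protein, had 5 and 1 counts in Supt7l-/- clones, against 19 and 25 counts in WT, -2.72 ± 0.61. Cyp19a1, the aromatase that makes oestrogens, had 0.682 and 0.526 CPM in Supt7l-/- clones, against 2.22 and 3.31 CPM in WT, -2.2 on the log2 scale. Both were a few counts per library where they were lowest. In both genes the clones lay under the minimum count of the filter on low counts, so entry needed a high level outside the clones. The same limit holds for Camk2n1, named below (0.910 and 0.947 CPM in Supt7l-/- clones). With the filter these calls are no separate support for a fall, but each was also made with no such filter. Fcrl5, an Fc receptor-like protein of B cells, had 7.73 and 7.16 CPM in Supt7l-/- clones, against 20.8 and 30.9 CPM in WT, -1.79. Galnt18, an enzyme that starts mucin-type O-glycans, had 5.80 and 6.95 CPM in Supt7l-/- clones, against 16.5 and 27.0 CPM in WT, -1.76. Here WT libraries differed from each other, with Tir1/BirA WT the higher in both genes. Of the rest, Kcnh8 (-2.04) and Kcnd3 (-1.73) encode potassium channels, Pkd2l1 a cation channel of the polycystin family (-1.64), and Slc47a1 an exporter of organic cations (-2.01). The last of the 12 were Camk2n1, an inhibitor of CaM kinase II (-2.0), the MHC class II gene H2-Eb1 (-1.78), the COPII coat gene Sec31b (-1.76) and Ube2l6, which attaches the ubiquitin-like protein ISG15 (-1.66).

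**Figure D3:**
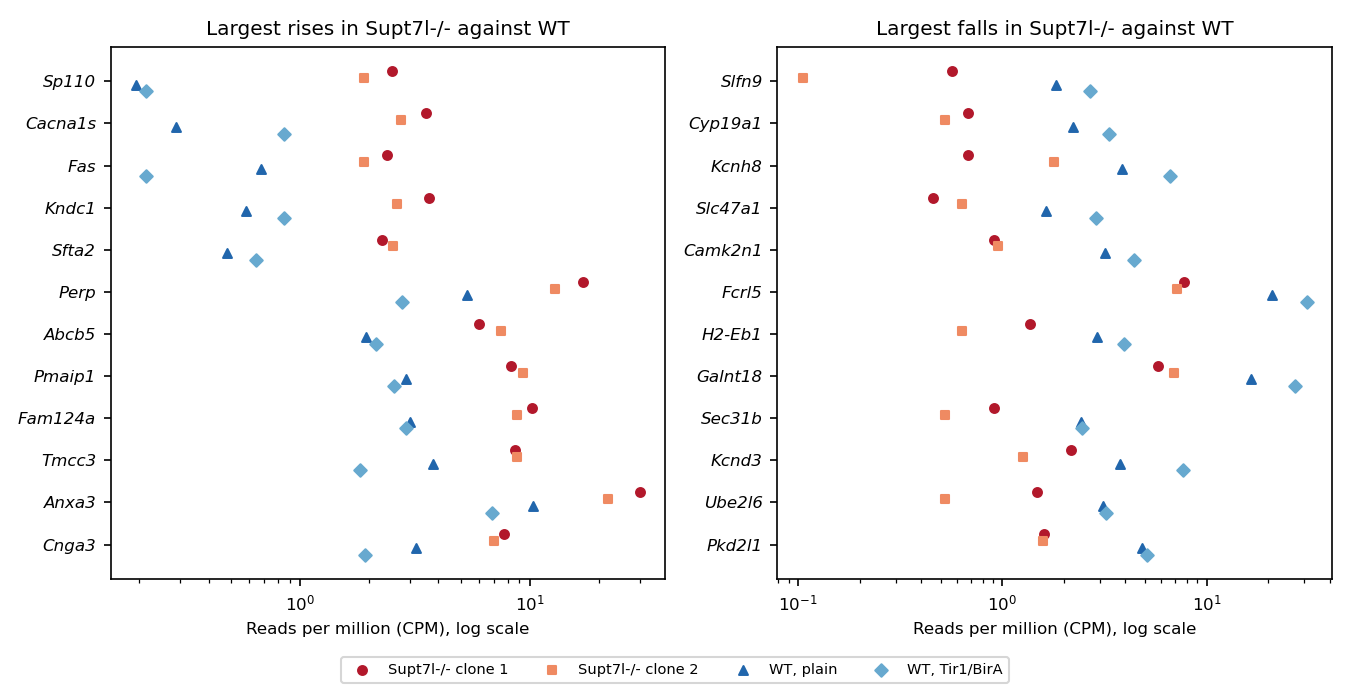
CPM (horizontal, log scale) in each of the 4 libraries for the 12 largest rises and the 12 largest falls among protein-coding autosomal genes, named at the left, with 1 symbol per library. Both Supt7l-/- clones lie beyond both WT libraries in each gene, which the choice of genes required, and most levels are under 10 CPM.

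Above 100 CPM the largest rises were Enox1, a cell-surface hydroquinone oxidase (157 and 163 CPM in Supt7l-/- clones, 81.1 and 54.7 CPM in WT, 1.23 ± 0.18, adjusted p = 0.0222), and Vwa3b (141 and 135 CPM in Supt7l-/- clones, 90.5 and 65.8 CPM in WT, 0.82 ± 0.12). Enox1 lies on distal chromosome 14. Wdr35, a subunit of the ciliary transport complex IFT-A, rose by 0.68, the export pump gene Abcb1b by 0.67 and the phospholipase C gene Plce1 by 0.64. On the spike-in scale Enox1 alone of these 5 was called. The largest falls at this level were Adgrg6, an adhesion G protein-coupled receptor (81.6 and 75.9 CPM in Supt7l-/- clones, 136 and 189 CPM in WT, -1.04 ± 0.14, adjusted p = 0.00847), Ldlrad4, a membrane inhibitor of TGF-beta signalling (-0.87), Cdh4 (143 and 113 CPM in Supt7l-/- clones, 244 and 217 CPM in WT), Klhl22, a substrate adaptor of Cul3 ubiquitin ligases (-0.84), and Dclk2. All 5 falls held on the spike-in scale.

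Among non-coding genes, Gm47509 rose by 2.39, Gm38258 by 2.06 and Gm28376 by 2.06. Among falls, Gm43948, annotated antisense within the ubiquitin ligase gene Pdzrn3, had 1.36 and 1.05 CPM in Supt7l-/- clones, against 7.25 and 10.0 CPM in WT, -2.83 ± 0.32, adjusted p = 5.70e-04. Pdzrn3 itself fell by 0.94 (adjusted p = 0.0468). The kit keeps strand, but how strand was used in counting is not given in the sources used here, so reads of the 2 genes may not be separate. Gm16499 (-3.31) and Gm34081 (-2.76) fell too, and Gm34081 lies in the Meg3 cluster on chromosome 12, where the WT lines differ.

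The imprinted cluster of Meg3 on chromosome 12, a run of long non-coding RNAs and small RNA genes made from the maternal copy, stood low in the Supt7l-/- clones. Meg3 had 10.9 and 8.63 CPM in Supt7l-/- clones, against 55.4 in plain WT and 196 CPM in Tir1/BirA WT. Rian had 29.1 and 25.8 CPM in Supt7l-/- clones, against 157 in plain WT and 630 CPM in Tir1/BirA WT. Mirg had 8.08 and 7.69 CPM in Supt7l-/- clones, against 40.4 in plain WT and 190 CPM in Tir1/BirA WT. The clones were below both WT libraries, but the WT libraries lay several-fold apart, and Meg3 (-3.68, adjusted p = 0.190) did not pass the test. Of 19 cluster genes tested, 0 rose and 5 fell, beside 1.32% and 1.94% of all genes. Their median was -3.84, and 17 had both clones below both WT libraries, beside 24.3% of all genes. These genes are neighbours in a region chosen after its values were seen, so they are not separate observations. Without plain WT the median was -4.52 and without Tir1/BirA WT -2.50. The summed level of the cluster also varied among the other lines of the series, with 230 CPM over plain mouse totals in plain WT of project 3 and 866 in plain WT of project 1.

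The microRNA gene Mir433, picked out from the cluster after its values were seen, was called lower, with 0 and 1 counts in Supt7l-/- clones and 6 and 18 counts in WT, adjusted p = 0.041. Mir433 could pass the filter, at a minimum count of 10, only through Tir1/BirA WT and AID-Yeats2 libraries. Entry thus needed a high level outside the clones, so the call describes these libraries and is no separate support for a fall. The counts are of the transcript over that gene and not of the mature microRNA. Its mature products in RefSeq (GRCm38.p6, plus strand) are shown because the seed, bases 2 to 8 in capitals, sets which mRNAs a microRNA pairs with.
mmu-miR-433-5p: uACGGUGAgccugucauuauuc
mmu-miR-433-3p: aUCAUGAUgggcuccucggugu
The 2 arms have different seeds. Gm25224 had 0 and 0 counts in Supt7l-/- clones and 6 and 24 counts in WT. Gm25856 had 0 and 0 counts in Supt7l-/- clones and 6 and 13 counts in WT. The limit given for Mir433, from the filter, holds for both.

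Transcripts of p53 targets were called higher in Supt7l-/- cells, and those of naive pluripotency genes lower, each as a small part of its list. Of 37 p53 targets tested, 8 rose and 0 fell, beside 1.32% and 1.94% of all genes. The median log2 fold change was 0.21 and 83.8% of members were above 0, beside 0.00 and 50.1% for all genes. Pmaip1 (Noxa, a BH3-only activator of apoptosis) had 8.30 and 9.37 CPM in Supt7l-/- clones, against 2.90 and 2.56 CPM in WT, a rise of 1.69 ± 0.24, adjusted p = 0.00154. Perp, a membrane protein of desmosomes, had 17.1 and 12.8 CPM in Supt7l-/- clones, against 5.32 and 2.78 CPM in WT, a rise of 1.86 ± 0.26, adjusted p = 0.0019. Fas, the death receptor, had 2.39 and 1.89 CPM in Supt7l-/- clones, against 0.677 and 0.214 CPM in WT, a rise of 2.2 ± 0.54, adjusted p = 0.038. These 3 were the only members called on the spike-in scale as well. For Fas both WT libraries lay under the minimum count of the filter, so it could enter only through other libraries. Entry of Fas thus needed a high level outside WT, and with the filter its call is no separate support for a rise. Fas was also called higher with no filter on low counts. Mdm2, the ubiquitin ligase that keeps p53 low, had 333 and 288 CPM in Supt7l-/- clones, against 253 and 226 CPM in WT, a rise of 0.37. Btg2, an antiproliferative gene, rose by 0.81, Ephx1, an epoxide hydrolase, by 0.55, the kinase gene Plk2 by 0.49 and Apaf1, the scaffold of the apoptosome, by 0.35. Cdkn1a (p21), the best-known target, had a log2 fold change of 0.11, Bbc3 (Puma) 0.61 with adjusted p = 0.0925, and Bax -0.25, and none passed. The list's median on the spike-in scale was -0.15. The number of members called was 1 without Supt7l-/- clone 1, 2 without clone 2, 14 without plain WT and 6 without Tir1/BirA WT. It was 1 with the 14 libraries, 2 with the 4 libraries alone and 5 with DESeq2.

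Of 23 naive pluripotency genes tested, 0 rose and 6 fell, beside 1.32% and 1.94% of all genes. Their median was -0.23 and 21.7% of members were above 0, beside 0.00 and 50.1% for all genes. Genes of at least 100 CPM, the level of Kit, Mybl2 and Nr5a2, gave 1.09% higher, 4.34% lower and 39.6% above 0. Kit, a receptor tyrosine kinase, had 571 and 583 CPM in Supt7l-/- clones, against 744 and 738 CPM in WT, -0.36 ± 0.06, adjusted p = 0.00409. Mybl2, a transcription factor of cycling cells, had 308 and 315 CPM in Supt7l-/- clones, against 379 and 416 CPM in WT, -0.35 ± 0.07, adjusted p = 0.0127. Nr5a2, a nuclear receptor that acts upstream of Pou5f1, had 732 and 726 CPM in Supt7l-/- clones, against 849 and 894 CPM in WT, -0.26 ± 0.06, adjusted p = 0.025. In each gene the clones lay close together, and both lay under both WT libraries by a small margin. Zfp42, known as Rex1 (-0.25), Tfcp2l1, a target of LIF signalling (-0.24), and the adhesion gene Jam2 (-0.23) also fell. The transcription factor genes Esrrb (-0.19), Klf4 (-0.14), Nanog (-0.12) and Pou5f1 (-0.20), and the growth factor gene Fgf4 (-0.46), were not called. On the spike-in scale 5 fell. With either Supt7l-/- clone left out 0 fell, 13 did without plain WT and 7 without Tir1/BirA WT. In other fits 0 fell with the 14 libraries, 2 with DESeq2, 2 with the 4 libraries alone, 3 without the robust prior and 10 with no filter on low counts. The summed embryonic stem cell markers, given above, include Zfp42, Esrrb, Klf4, Nanog and Pou5f1. Their lower sums in both clones are thus not separate from the values here, and 24.3% of all genes had both clones below both WT libraries.

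**Figure D4:**
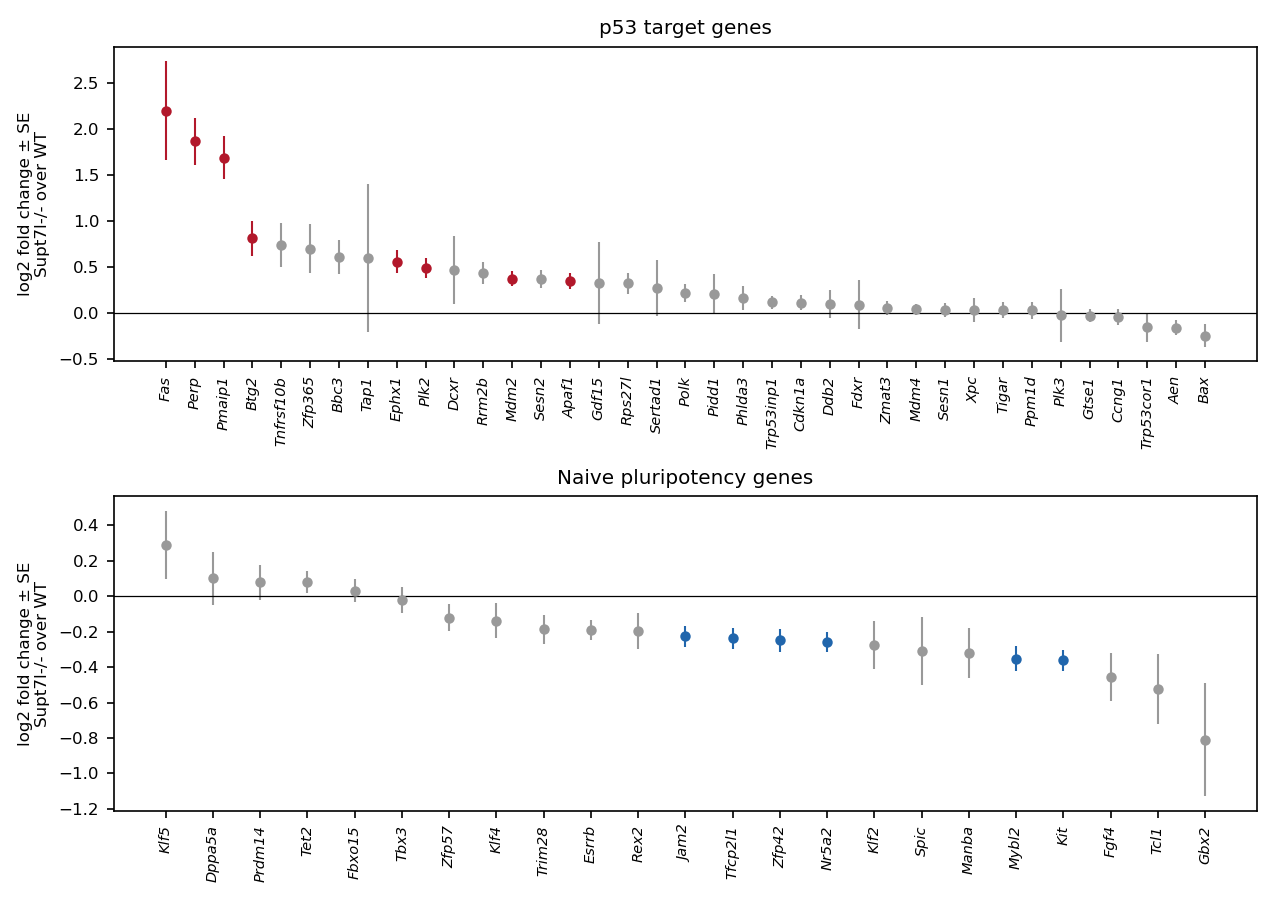
Log2 fold change of Supt7l-/- over WT with its SE (points and bars, n = 2 libraries each) for 37 p53 targets (top) and 23 naive pluripotency genes (bottom), called genes in red or blue and others in grey. The 8 called p53 targets lie above 0 and the 6 called naive pluripotency genes below 0.

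Genes of other cell states changed in small numbers. The counts of these and the following lists stand beside 1.32% higher and 1.94% lower of all genes. The trophectoderm factor Gata3 had 14.0 and 13.1 CPM in Supt7l-/- clones, against 6.77 and 4.17 CPM in WT, a rise of 1.29 ± 0.22, adjusted p = 0.00513, the 1 call among 9 genes of that list. Elf5, another gene of that lineage, had no count in any of the 4 libraries. Of 14 primitive endoderm genes, the endocytic adaptor Dab2 rose by 0.89 and the matrix protein Sparc by 0.49, while the basement membrane laminin Lama1 fell by 0.33. The marker sums hold some of these genes and are not separate from them. Trophectoderm markers, Gata3 among them, summed to 19 and 18.2 CPM in Supt7l-/- clones and to 12.7 and 9.94 CPM in WT. Gata3 alone rose by at least as many CPM as that sum did. Primitive endoderm markers, Dab2 among them, are given above. Whether more cells of another type played a part was not tested, and in bulk RNA fewer cells of a type and less RNA per cell cannot be told apart. None of the tested genes of the 2-cell-like (4), germline (16), mesoderm (5) and neuroectoderm (8) lists was called. Dppa2 was the 1 rise among 17 general pluripotency genes (0.47). In the formative and primed list of 15, the RNA-binding gene Lin28b rose by 0.59 and the ETS factor Etv1 fell by 0.31.

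Among signalling targets, the Wnt effector Lef1 had 5.46 and 8.63 CPM in Supt7l-/- clones, against 17.8 and 17 CPM in WT, -1.29 ± 0.20, adjusted p = 0.00287. It was the 1 call of 17 Wnt targets, whose median was -0.30. Etv1 was the 1 fall of 17 ERK targets. Of 17 immediate-early genes, 2 rose, the matricellular gene Ctgf (27.4 and 25.3 CPM in Supt7l-/- clones, 17.8 and 15.1 CPM in WT, 0.68 ± 0.15) and Btg2, which is also a p53 target. That list had a median of 0.52, and its Atf3, a stress factor, had 1.04 with adjusted p = 0.0537. Of 17 LIF and Stat3 genes, the tight-junction gene Ocln rose by 0.84, and Tfcp2l1 and the receptor subunit Il6st (-0.27) fell. In the TGF-beta family list of 29, the Smad repressor Skil rose by 0.50 and the receptor Acvr2b fell by 0.60.

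Matrix and adhesion genes moved in both directions. Of 25 extracellular matrix genes, 3 fell and Sparc rose, with a median of -0.24, beside 1.94% lower and 1.32% higher of all genes. Nid1, a linker of basement membranes, had 146 and 141 CPM in Supt7l-/- clones, against 188 and 198 CPM in WT, -0.43 ± 0.07, adjusted p = 0.00406. The collagen gene Col5a2 had 5.35 and 4.95 CPM in Supt7l-/- clones, against 10.2 and 11.8 CPM in WT, -1.09 ± 0.21, adjusted p = 0.00997. Lama1 was the other. Fibroblast markers, whose sums are given above, were lower in the same clones, with Col1a2 at 0.114 and 0.421 CPM in Supt7l-/- clones and 3.09 and 4.92 CPM in WT, though Col1a2 did not pass the test (adjusted p = 0.386). Of the 5 fibroblast genes tested, 40.0% lay above 0 with TMM scaling and none was called (median -1.18). On the spike-in scale 3 of these 5 fell. The part of such cells in the matrix falls was not tested. Of 25 adhesion genes, Ocln and the hemidesmosome integrin Itgb4 (1.18) rose, and Cdh4 and the desmosome gene Pkp2 (-0.46) fell. The 1 rise of 29 cytoskeletal genes was Anxa2.

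Growth and housekeeping lists gave few calls. Of 40 replication and S phase genes, 3 subunits or partners of the replicative helicase fell, Mcm5 (138 and 142 CPM in Supt7l-/- clones, 164 and 186 CPM in WT, -0.32), Mcm2 (-0.37) and Mcm10 (-0.31), and 2.5% of the list lay above 0 (median -0.21). Of all genes, 1.94% fell and 50.1% lay above 0, and of genes of at least 100 CPM, 4.34% and 39.6%. Against WT of their projects, the list's median was also low in AID-Yeats2 (-0.25, 10 lower) and AID-Tada3 cells (-0.17). Of 32 mitosis genes, the topoisomerase gene Top2a fell by 0.32. In the DNA methylation list of 14, the dioxygenase gene Tet3 had 16.8 and 15.1 CPM in Supt7l-/- clones, against 30.3 and 25.6 CPM in WT, -0.82 ± 0.14, adjusted p = 0.00496, and Uhrf1, which recruits Dnmt1, fell by 0.50. Kat6b, an acetyltransferase, was the 1 fall of 28 histone acetylation writers and erasers (-0.26). Single genes fell in the lists of translation factors (Eif2b5, -0.70, of 46) and heat shock (Hsph1, -0.34, of 20). In the amino acid stress list of 26, Ddit4, an inhibitor of mTORC1, rose by 1.06 and asparagine synthetase Asns fell by 0.40. Rises came from lysosome and autophagy genes (the proton pump subunit Atp6v1a by 0.47 and the glucosidase Gaa by 0.78, of 27), the glycolysis and hypoxia list (the collagen prolyl hydroxylase P4ha2 by 1.32, of 27) and imprinted genes outside the Meg3 cluster (Peg10 by 0.74, of 22). No member was called among 72 cytosolic and 73 mitochondrial ribosomal protein genes, 51 of ribosome biogenesis, 73 of the respiratory chain, 25 of cholesterol synthesis, 23 of the unfolded protein response, 20 aminoacyl-tRNA synthetases, 8 of the chaperonin CCT, 31 of the proteasome, 7 of the aryl hydrocarbon receptor pathway, 12 of the interferon response and 5 fibroblast genes.

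**Figure D5:**
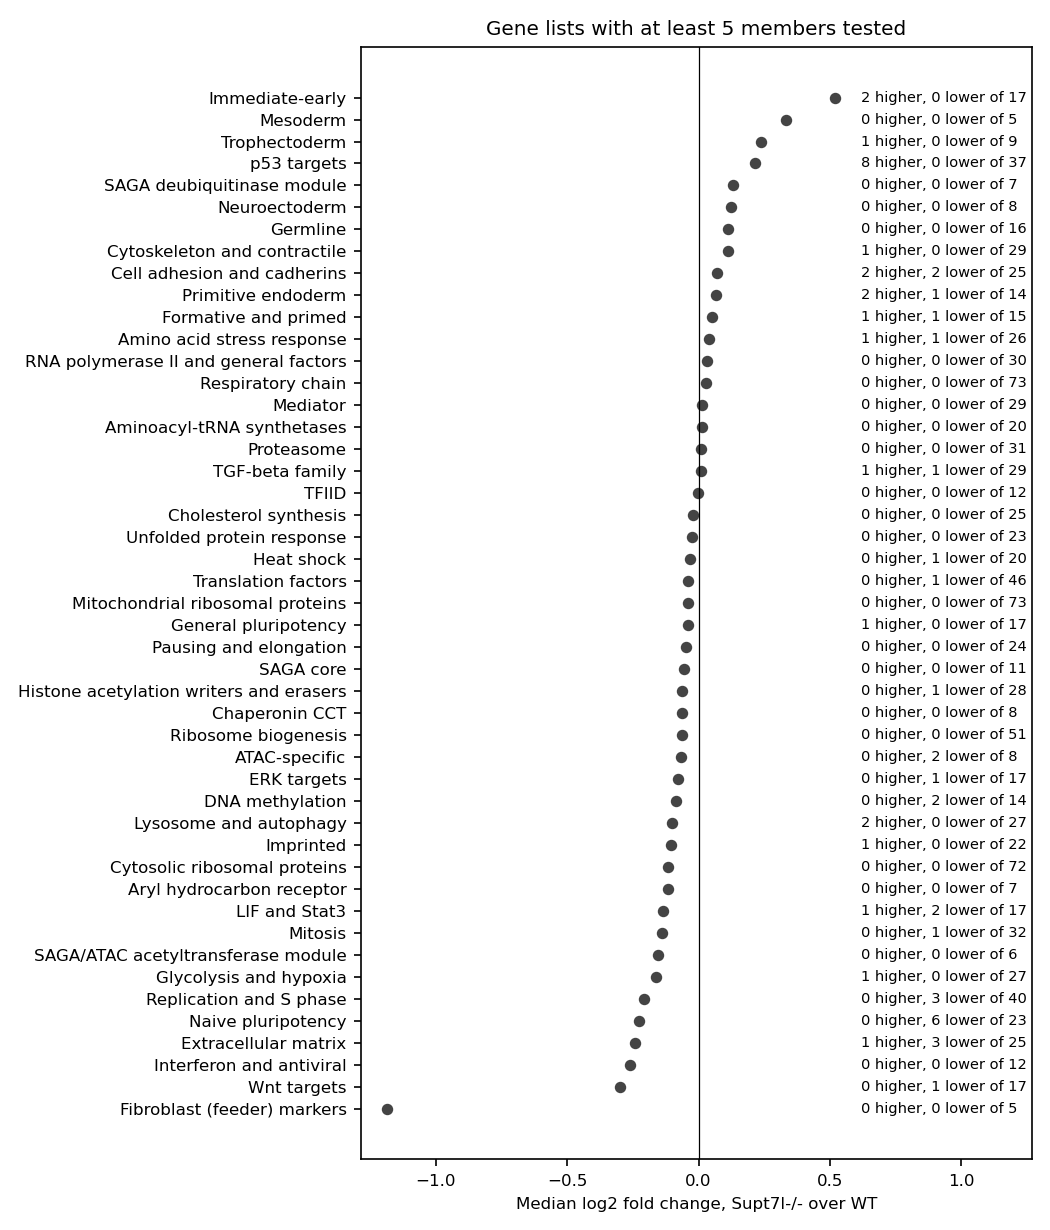
Median log2 fold change of Supt7l-/- over WT (horizontal) for gene lists with at least 5 members tested, from the highest at the top, with the number called higher and lower of those tested at the right. The p53 targets (8 higher) and the naive pluripotency genes (6 lower) have the most calls.

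The same fit compared the Supt7l-/- clones directly with the AID-Yeats2 clones, which were sequenced in the same project and lost an ATAC subunit. Supt7l-/- cells had 1037 genes higher (7.41%) and 1242 lower (8.87%) than AID-Yeats2 cells, more than against WT. On chromosome 14, 84 were higher and 35 lower of 519, and on chromosome 17, 48 were higher and 81 lower of 654. Both hold a distal region where AID-Yeats2 clones stood near Tir1/BirA WT and apart from Supt7l-/- clones. The comparison was not refitted without those regions, and the part that such line differences play in it was not tested. The AID-Yeats2 clones were themselves 555 genes higher (3.96%) and 460 lower (3.29%) than the same WT libraries. The 2 comparisons with WT share those WT libraries. Ribosomal protein genes differed between the mutants: 40 of 72 were higher and 0 lower in Supt7l-/- than in AID-Yeats2 cells, and against WT 0 were lower in Supt7l-/- cells and 38 in AID-Yeats2 cells. Rpl31, for example, had 73.2 and 70.1 CPM in Supt7l-/- clones, 41.6 and 42.5 CPM in AID-Yeats2 clones, and 85.0 CPM in plain WT beside 91.6 CPM in Tir1/BirA WT. Of 37 p53 targets, 15 were lower in Supt7l-/- than in AID-Yeats2 cells, and the list's median against WT was 0.21 in Supt7l-/- and 0.59 in AID-Yeats2 cells, where 20 rose. Between the mutants, the median difference was 0.56 for ribosomal protein genes, -0.36 for p53 targets and -0.30 for naive pluripotency genes, beside 0.01 for all genes. On the spike-in scale these medians were 0.69, -0.23 and -0.16, beside 0.15 for all genes.

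Single p53 targets did not follow the list. Perp had 17.1 and 12.8 CPM in Supt7l-/- clones and 5.89 and 5.38 CPM in AID-Yeats2 clones, a difference of 1.40 ± 0.25, adjusted p = 0.00208. Pmaip1 had 8.30 and 9.37 CPM in Supt7l-/- clones and 4.44 and 4.77 CPM in AID-Yeats2 clones, a difference of 0.94 ± 0.22, adjusted p = 0.0097. Both were thus higher in Supt7l-/- cells, while Mdm2 (-0.42) and Plk2 (-0.62) were lower there than in AID-Yeats2 cells, and Fas differed by -0.11 (adjusted p = 0.887). Of 23 naive pluripotency genes, 14 were lower and none higher in Supt7l-/- than in AID-Yeats2 cells. Kit had 571 and 583 CPM in Supt7l-/- clones and 784 and 826 CPM in AID-Yeats2 clones. Anxa3 was higher in Supt7l-/- than in AID-Yeats2 cells by 1.81 (adjusted p = 1.49e-04). Acss1 (-1.63, adjusted p = 1.55e-05) and Dclk2 (-1.17, adjusted p = 3.77e-06) were lower. Fcrl5 had 7.73 and 7.16 CPM in Supt7l-/- clones and 101 and 71.4 CPM in AID-Yeats2 clones, with WT at 20.8 and 30.9 CPM, so it lay on opposite sides of WT in the 2 mutants. H2-Eb1 had 1.36 and 0.632 CPM in Supt7l-/- clones, 12.6 and 9.14 CPM in AID-Yeats2 clones, with WT at 2.90 and 3.95 CPM, in the same order.

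Tada3 belongs to the acetyltransferase module that SAGA and ATAC share, and AID-Tada3 cells have WT libraries of their own in project 1. In a fit over the 14 4sU libraries of the series, the effect of Supt7l-/- minus the effect of AID-Tada3 was tested with edgeR. At an adjusted p under 0.05, 1 gene was called above 0 (0.00672%) and 2 genes below 0 (0.0134%) of 14885 autosomal genes. A gene that was not called is not shown to have equal effects in the 2 mutants. DESeq2 gave 19 and 37. In that wider fit the Supt7l-/- comparison itself called 32 genes higher and 54 lower. The project goes with the line here, so a difference between projects and one between mutants cannot be told apart.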

How the data were processed

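Newly made RNA of 4 libraries (2 Supt7l-/- clones and 2 WT lines) was analysed with the other 4sU libraries of project 2. Per the submitters' processing notes, the tools on mm10 were STAR 2.5.3a, DESeq2 1.16.1, HTSeq 0.6.1p1, Bowtie2 2.2.8, bcl2fastq 2.17.1.14 and cutadapt 1.10; their roles and the strand setting are not given in the sources used here. The authors deposited raw counts per gene, separate counts of yeast spike-in genes, a normalized signal that equals the deposited count divided by the spike-in size factor, and a log2 fold change with p-value and adjusted p-value from their own comparison.

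From the counts, edgeR 4.0.16 (limma 3.58.1, R 4.3.3) ran glmQLFit (robust) and glmQLFTest over the 6 4sU libraries of project 2 with 1 mean per group, TMM scaling and filterByExpr at a minimum count of 10, leaving 3 residual degrees of freedom. Standard errors were the log2 fold change over the square root of F. Spike-in scaling used 5217 yeast genes with at least 10 counts in each library. DESeq2 1.42.0 was an alternative, and the script was tested on simulated data. Python 3.11.15 with pandas 2.3.3, numpy 2.4.6, scipy 1.17.1 and matplotlib 3.10.9 made summaries, the exact permutation test and figures.

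Named genes were Supt7l and genes within 200 kb; the 12 largest rises and falls among protein-coding autosomal genes with a full symbol, an adjusted p under 0.05, the same sign on the spike-in scale, at least 1 CPM and no overlap between clones and WT; the 5 largest of each above 100 CPM; the 3 largest non-coding of each; the 3 members of each of 48 gene lists with the smallest p, and all SAGA and ATAC members; and the 6 genes with the smallest p. Other genes named were chosen after their values were seen. The comparison, the members and the lists were chosen with earlier results of these data known. Distal chromosomes 14 and 17 and the Meg3 cluster were defined after seeing the data. Alternatives were other scalings, filters, tools, sets of libraries and leaving out each library. Some genes were not analysed here.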

Additional observations from a re-analysis of the deposited data

Results flagged for a closer look

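Slc39a11, a zinc transporter gene, had a difference of -0.88 on the log2 scale between its effect in Supt7l-/- cells (-0.65) and its effect in AID-Tada3 cells (0.23), with adjusted p = 0.0360 in edgeR's test of the difference over 14 libraries. Slco5a1, a solute carrier gene, had a difference of -0.96, from -0.67 in Supt7l-/- cells and 0.29 in AID-Tada3 cells, with adjusted p = 0.0360. Arpc4, which encodes part of the Arp2/3 complex that nucleates actin, had a difference of 1.08, from -0.20 in Supt7l-/- cells and -1.28 in AID-Tada3 cells, with adjusted p = 0.0200. These 3 are all the genes whose effects passed that test. For Arpc4 most of the difference lay on the AID-Tada3 side, and whether the tag on Tada3 itself affected Arpc4 was not tested. Groups of 2 libraries allow no check for a single library far from the others.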

How the results depend on the processing

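No paired analysis was possible because the WT libraries carry no clone number and are 2 different lines. Counts of autosomal calls, 185 higher and 272 lower, were 31 and 606 with spike-in scaling, 535 and 651 with no filter, 90 and 156 with the 4 libraries alone, and 32 and 54 with 14 libraries. Leaving out 1 library gave 12 to 1250 higher and 21 to 1271 lower. On the spike-in scale it gave 0 to 41 higher and 49 to 3662 lower, the most without Supt7l-/- clone 2 and the fewest without Tir1/BirA WT. Without the 3 regions a new fit gave 231 and 301. The spike-in runs with a library left out and the runs without the regions were chosen after seeing the data. Against AID-Yeats2, 1037 and 1242 became 382 and 309 with spike-in scaling and 568 and 777 with DESeq2. The difference of effects from AID-Tada3, 1 and 2 genes, became 19 and 37 with DESeq2. Mouse RNA per spike-in had a log2 ratio of -0.552 to -0.187 with a library left out. Of 1183 alternative values for the 85 called genes named and for Supt7l, which was not called, all kept their sign. Of the called genes, 64 lost the call with 14 libraries, 32 with the 4 libraries alone and 10 without the robust prior. A minimum of 50 counts took the call from 2, and DESeq2 and spike-in scaling from 28 each. Most also lost it with either Supt7l-/- clone left out, and some with Tir1/BirA WT left out. The cause was not tested. Genes of a few counts per library limit what can be called at this depth.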

Other observations

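Calls were more frequent among genes with a long span. Of 525 autosomal genes spanning at least 300 kb, 23 were higher (4.38%) and 39 lower (7.43%) in Supt7l-/- cells, against 12 higher (0.383%) and 12 lower (0.383%) of 3130 genes under 10 kb. Of the 525 long genes, 2 were higher and 60 lower on the spike-in scale, against 2 higher and 83 lower of the 3130 short ones. The share lower was thus again greater among the long genes. Of all genes, 0.221% were higher and 4.33% lower on that scale. The difference in share was not tested, and spans were not compared at equal level. By level, 1.09% were higher and 4.34% lower among 2376 genes of at least 100 CPM, against 0.862% and 0.825% among 5336 genes of 1 to 10 CPM. Long non-coding (lincRNA) genes gave 11 higher (1.68%) and 9 lower (1.38%) of 653, and genes annotated as antisense 7 higher (1.62%) and 6 lower (1.39%) of 431, close to the 1.32% and 1.94% of all genes. Among whole chromosomes, median log2 fold changes ran from -0.06 on chromosome 17 to 0.10 on chromosome 14, which hold the regions where the WT lines differ.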
